A study of Mus musculus with 54 samples.

Results

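The Cd5-/-Cd6-/- naive CD4+ T cells stimulated for 4 h were compared with WT cells stimulated for the same time. The comparison holds 6 libraries of the 54 in the series, chosen by their labels alone: 3 of Cd5-/-Cd6-/- cells and 3 of WT cells, numbered 1 to 3 in each group. They belong to an RNA-sequencing experiment of 36 libraries that also holds Cd5-/- and Cd6-/- cells and the times 0 h and 20 h. All 6 came from mice on the C57BL/6 background, 8 to 10 weeks old, and all were activated with plate-bound anti-CD3 at 3 µg/ml and anti-CD28 at 1 µg/ml. Lymph node and spleen cells were pooled, and naive CD4+ T cells were enriched from them magnetically by removing the other cells. The Cd5-/-Cd6-/- mice descend from a germline deletion made in embryos with Cas9, so the loss was not limited to T cells. The study describes the samples of a condition as independently prepared for the times it reports, without saying whether they came from separate mice, so the p-values measure the spread between these preparations.

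CD5 and CD6 are surface glycoproteins of T cells with extracellular scavenger receptor cysteine-rich domains and long cytoplasmic tails that become phosphorylated on tyrosines after the T cell receptor (TCR) is engaged. CD5 is best known for damping TCR signals in thymocytes and mature T cells, and its surface level follows the strength of those signals. CD6 binds CD166 (ALCAM) on other cells. Within a few hours of anti-CD3 and anti-CD28, naive T cells have induced immediate early transcription factors, cytokine genes and the machinery of growth, and have not yet divided.

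Cd5 and Cd6 lie close together on the minus strand of chromosome 19 (GRCm38), with Cd5 at chr19:10717116-10739002 and Cd6 at chr19:10789341-10830058. The deletion was made with a guide in each gene. The target sites are shown because they set which genes could be lost, and capitals mark the protospacer-adjacent motif (PAM) that Cas9 needs next to its target.
Cd5 site: cagcacttcgtgggagtccaTGG
Cd6 site: ggagacggttgtgccaccgaTGG
By their match to GENCODE transcripts, the Cd5 site is chr19:10738826-10738848, plus strand, in the coding part of exon 1, and the Cd6 site is chr19:10829917-10829939, plus strand, in the 5′ UTR of exon 1. The interval between the expected cuts spans 91.1 kb. It holds the start of Cd5, nearly all of Cd6, and the whole of A430093F15Rik, a noncoding transcript at chr19:10740947-10786043 on the plus strand. The later exons of Cd5 and the start site of Cd6 lie outside it.

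The Cd5-/-Cd6-/- libraries held 31070523, 40981900 and 32859605 counts and the WT libraries 35028320, 41520439 and 30230253. Levels are given as CPM, the counts divided by the library total and its TMM factor and scaled to 1000000, listed in the order of replicates 1, 2 and 3. A floor of 3 counts corresponds to between 0.0752 and 0.106 CPM, for counting error only. No replicate pair agreed within counting noise (chi-square over degrees of freedom between 34.3 and 85.2 for the 6 pairs). Genes that define CD4+ T cells were high in every library. Cd4 ran from 524 to 735 CPM, Trac, the constant part of the TCR alpha chain, from 1825 to 2356 CPM, and Cd3e from 377 to 527 CPM, while Cd8a ran from 2.54 to 11.4 CPM.

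The targeted genes were nearly absent from the Cd5-/-Cd6-/- libraries. Cd5 stood at 1684, 1399.6 and 1447 CPM in WT cells and at 0.345, 0.376 and 0.525 CPM in Cd5-/-Cd6-/- cells. Over the 3 libraries this was 41 reads of Cd5 against 148328. Cd6 stood at 1012, 888 and 867 CPM in WT and 0.553, 0.652 and 0.459 CPM in Cd5-/-Cd6-/- cells. The transcript between them, A430093F15Rik, went from 91.7, 74.3 and 95.4 CPM to 0.104, 0.0251 and 0 CPM. Its 4 remaining reads gave a 2134-fold lower level, with an exact 95% counting interval from 833-fold to 7833-fold. By edgeR's quasi-likelihood test the log2 fold changes were -11.82 for Cd5 (SE 0.52, adjusted p = 3.37e-31), -10.68 for Cd6 (SE 0.40, adjusted p = 1.75e-35) and -10.94 for A430093F15Rik (SE 0.35, adjusted p = 2.45e-40). The counts are per gene and do not show which exons the last reads came from.

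The single knockouts of the same time kept part of these transcripts. In Cd5-/- cells at 4 h, Cd5 stood at 94.7, 150.3 and 61.6 CPM, Cd6 at 1245, 1048 and 1133 CPM and A430093F15Rik at 136, 111 and 122 CPM. In Cd6-/- cells, Cd6 stood at 312, 250.3 and 230.1 CPM, Cd5 at 1644, 1299.8 and 1133 CPM and A430093F15Rik at 91.6, 77.6 and 66.3 CPM. A430093F15Rik was thus lost in the Cd5-/-Cd6-/- libraries and kept in both single knockouts. Around the deletion, 33 further genes within 1 Mb had a mean of at least 1 CPM, and 0 of them were called with or without the replicate number as a block. With 0.0434% of all genes called (0.0774% with the block), a count of 0 says nothing particular to them. Their log2 fold changes ran from -0.37 to 0.91 with a median of 0.15.

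Across the transcriptome few genes differed at 4 h. Calls required more than a 2-fold difference together with adjusted p below 0.05 (edgeR). Of 32290 genes tested, 10 were higher and 4 lower in Cd5-/-Cd6-/- cells, 0.0434% of all genes (0.031% higher and 0.0124% lower), and adjusted p alone called the same number, 0.0434%. Same-numbered libraries of the 2 genotypes deviated together, so the fit was repeated with the replicate number as a block. It called 21 genes higher and 4 lower, 0.0774% of genes (0.065% and 0.0124%), and by adjusted p alone 33 higher and 5 lower, 0.118%. Both fits shared 13 genes. The number of higher genes moved with single libraries, to 69 without Cd5-/-Cd6-/- library 1 and to 28 without WT library 3, and it was 23 without a pair of 0 h libraries (number 2 of Cd5-/- and of Cd6-/-) in which the Cd5 and Cd6 levels went against the labels.

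**Figure D1:**
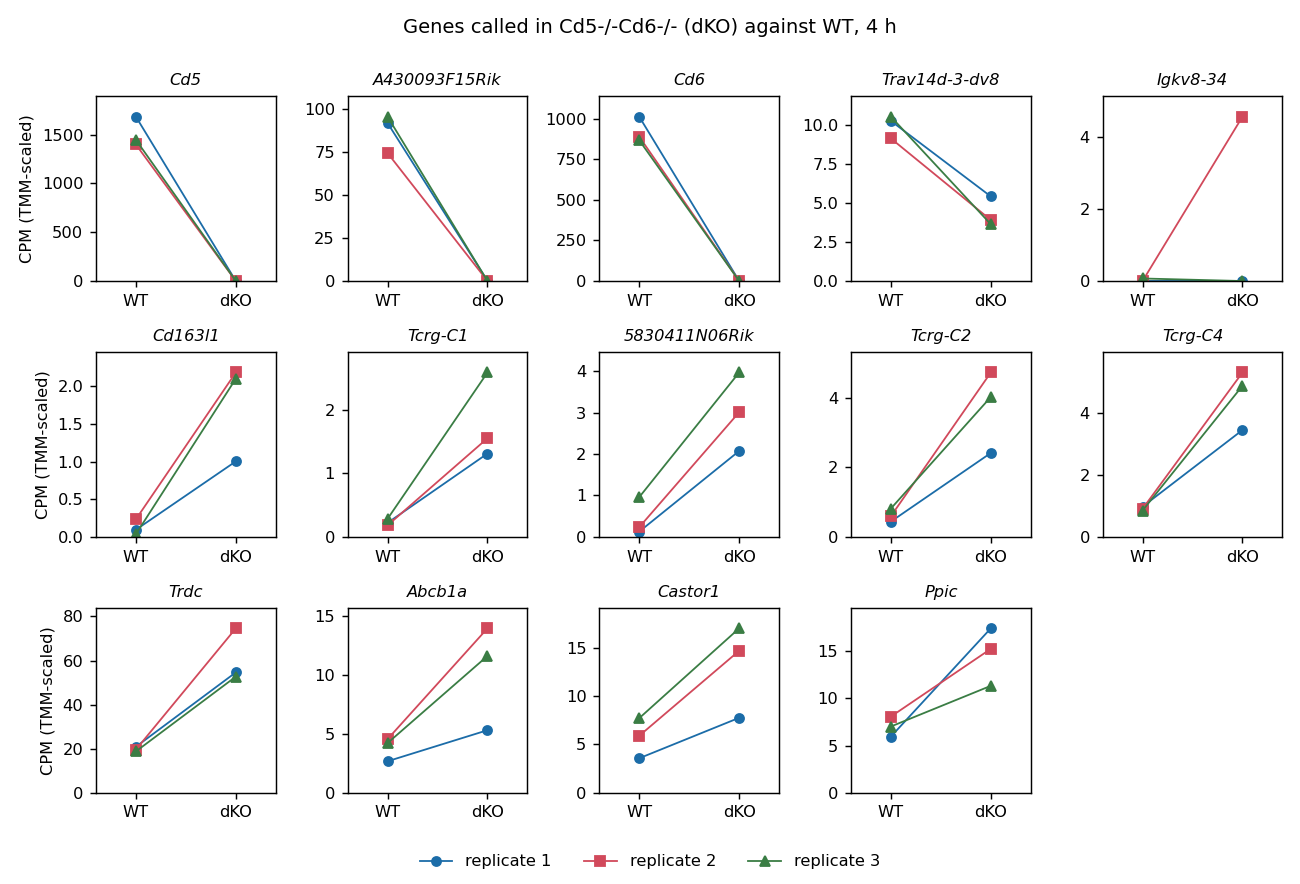
TMM-scaled CPM (y axes, linear from 0) of the 14 genes called at 4 h, with lines joining same-numbered WT and Cd5-/-Cd6-/- (dKO) libraries. Cd5, A430093F15Rik and Cd6 drop to near 0 in each Cd5-/-Cd6-/- library, the gamma delta TCR genes rise in each, and Igkv8-34 is high in library 2 alone at 4.56 CPM.

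Of the 10 higher genes, 6 are known from gamma delta T cells. These cells carry a TCR made of a gamma and a delta chain in place of alpha and beta, and are not the cells the enrichment aims for. Trdc, the constant part of the delta chain, stood at 20.8, 19.5 and 18.7 CPM in WT and 54.6, 74.6 and 52.7 CPM in Cd5-/-Cd6-/- cells (log2 fold change 1.62, SE 0.24, adjusted p = 1.24e-05). The groups did not overlap. The constant parts of the gamma chain were higher too. Tcrg-C2 stood at 0.441, 0.596 and 0.816 CPM in WT and 2.42, 4.74 and 4.03 CPM in Cd5-/-Cd6-/- cells (log2 fold change 2.60, SE 0.37, adjusted p = 4.47e-06), and Tcrg-C4 at 0.976, 0.906 and 0.851 and 3.45, 5.31 and 4.88 CPM (log2 fold change 2.32, SE 0.35, adjusted p = 2.06e-05). Tcrg-C1 stood at 0.220, 0.181 and 0.284 CPM in WT and 1.31, 1.55 and 2.59 CPM in Cd5-/-Cd6-/- cells (log2 fold change 2.99, SE 0.49, adjusted p = 1.67e-04). Reads could have been split among constant genes that resemble each other, and all 3 separated the groups. Cd163l1 and 5830411N06Rik encode scavenger receptor cysteine-rich proteins found on gamma delta T cells. Cd163l1 stood at 0.0945, 0.233 and 0.0355 CPM in WT and 1.00, 2.18 and 2.10 CPM in Cd5-/-Cd6-/- cells (log2 fold change 3.75, SE 0.63, adjusted p = 2.72e-04), and 5830411N06Rik at 0.126, 0.233 and 0.958 and 2.07, 3.01 and 3.97 CPM (log2 fold change 2.82, SE 0.49, adjusted p = 6.30e-04). Again the groups did not overlap. These 6 genes were called on the same values, so the separation adds no support to the calls. The first 5 of these genes were called in every alternative tried, and 5830411N06Rik in 14 of 15, with adjusted p = 0.0976 under edgeR's low-count filter. The size of the change moved with WT libraries for Cd163l1 (log2 fold change 4.66 without WT library 2) and 5830411N06Rik (4.03 without WT library 3).

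The list of gamma delta T cell genes held 20 members, of which 19 were tested and 8 had a mean of at least 1 CPM. 5 of the tested members rose without the block, 6 with it, and 0 fell. Tcrg-C1, Tcrg-C2 and Tcrg-C4 reached a mean of 1 CPM only through the Cd5-/-Cd6-/- libraries, so no median over the list is given. Tcrg-V4, a variable segment of the gamma chain, was called with the block alone (0.0630, 0.155 and 0.213 CPM in WT and 0.449, 1.23 and 0.885 CPM in Cd5-/-Cd6-/- cells, log2 fold change 2.56, SE 0.57, adjusted p = 0.0281 with the block). Trdv1, a variable segment of the delta chain, stood at 1.92, 2.12 and 1.99 CPM in WT and 3.35, 5.11 and 3.70 CPM in Cd5-/-Cd6-/- cells and did not pass the test (log2 fold change 1.01, adjusted p = 1, and 0.314 with the block). Sox13, a transcription factor that acts in gamma delta T cell development, had a log2 fold change of -0.071 and an adjusted p of 1. The summed level of the list ran from 36.1 to 41.2 CPM in WT and from 80.0 to 113 CPM in Cd5-/-Cd6-/- libraries. In bulk RNA, more cells of a type and more of these transcripts per cell cannot be told apart.

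Of the other higher genes, 3 separated the groups. Ppic, which encodes the peptidyl-prolyl isomerase cyclophilin C, stood at 5.95, 8.08 and 7.02 CPM in WT and 17.4, 15.3 and 11.3 CPM in Cd5-/-Cd6-/- cells (log2 fold change 1.06, SE 0.21, adjusted p = 0.00579). Castor1, an arginine sensor upstream of mTORC1, stood at 3.56, 5.88 and 7.70 CPM in WT and 7.74, 14.7 and 17.0 CPM in Cd5-/-Cd6-/- cells (log2 fold change 1.20, SE 0.24, adjusted p = 0.00681). Abcb1a, a drug efflux pump, stood at 2.68, 4.56 and 4.22 CPM in WT and 5.32, 14.0 and 11.6 CPM in Cd5-/-Cd6-/- cells (log2 fold change 1.43, SE 0.31, adjusted p = 0.0407). All were higher in each of the 3 same-numbered pairs. They were called on these same values, so the separation describes them and adds no support. Of 15 alternatives, Ppic kept the call in 13, Castor1 in 9 and Abcb1a in 7. Without Cd5-/-Cd6-/- library 1 the log2 fold change of Ppic was 0.94, under the fold threshold, and without WT library 1 adjusted p was 0.140. Castor1 and Abcb1a each lost the call without Cd5-/-Cd6-/- library 2, without Cd5-/-Cd6-/- library 3 or without WT library 1, with adjusted p from 0.0562 to 0.849. The last, Igkv8-34, an immunoglobulin light chain segment of B cells, rested on Cd5-/-Cd6-/- library 2, where it had 182 reads (4.56 CPM), with 0 reads in the other Cd5-/-Cd6-/- libraries and 2 in all WT libraries (log2 fold change 5.97, SE 1.30, adjusted p = 0.0483, a fitted value that depends on the prior count). Without that library its log2 fold change was -2.67 with adjusted p = 1, and with the block adjusted p was 0.137.

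The lower gene outside the deletion was Trav14d-3-dv8, a variable segment that can be joined into alpha or delta chains. It stood at 10.3, 9.14 and 10.5 CPM in WT and 5.42, 3.91 and 3.64 CPM in Cd5-/-Cd6-/- cells (log2 fold change -1.21, SE 0.24, adjusted p = 0.00839), and the groups did not overlap. It lost the call without Cd5-/-Cd6-/- library 2, without Cd5-/-Cd6-/- library 3 or without WT library 1 (adjusted p from 0.0921 to 0.240). The mouse alpha locus holds near-identical copies of many Trav segments, so a read could fit several of them. The Trav segments taken as a family lay on either side of 0. Of 55 segments with a mean of at least 1 CPM, 33 had a log2 fold change above 0 and 22 below, with a median of 0.068. Some reached that mean through a single genotype, so the split only describes them. Among these, Trav15-2-dv6-2 and Trav3-4 did so through the Cd5-/-Cd6-/- libraries and Trav9n-4 through the WT libraries. The summed level of the 86 tested ran from 200.3 to 214 CPM in WT and from 193 to 232 CPM in Cd5-/-Cd6-/- libraries. By symbol, copies marked d, among them Trav14d-3-dv8, summed to 25.4, 22.5 and 25.3 CPM in WT and 20.3, 16.7 and 16.7 CPM in Cd5-/-Cd6-/- libraries. Of the 8 d copies at 1 CPM or more, 5 were above 0. Trav7d-4 and Trav9d-1 among them reached 1 CPM only through the Cd5-/-Cd6-/- libraries, so nothing is read from this count. Copies marked n summed to 24.6, 24.5 and 26.9 and 24.4, 19.9 and 18.4 CPM, and segments with neither mark to 164, 153 and 160 and 188, 179 and 158 CPM. Beside Trav14d-3-dv8, 3 more had fold changes under -1 on the log2 scale without passing the test: Trav6n-6 (-1.31, adjusted p = 0.479), Trav8d-2 (-1.30, adjusted p = 0.406) and Trav7n-4 (-1.20, adjusted p = 0.683). The family and these members were chosen after their values were seen. DESeq2, which called 8 genes higher and 9 lower in all, called these 3 and Trav10n lower (adjusted p from 0.00565 to 0.0235 by DESeq2). The Trbv segments of the beta chain had a median log2 fold change of 0.027 over 19 segments.

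**Figure D2:**
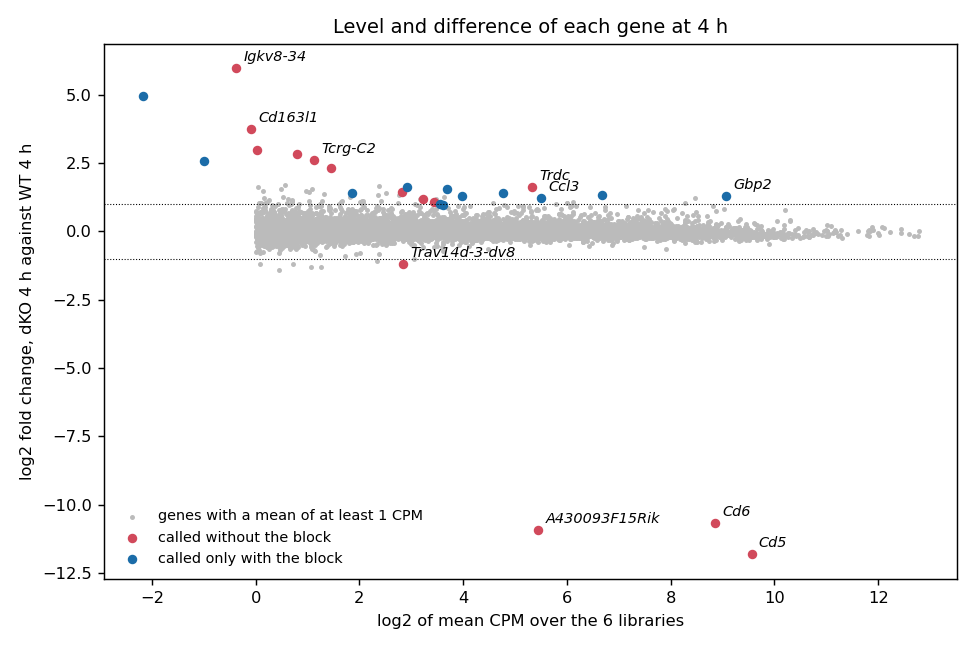
Log2 of the mean CPM over the 6 libraries (x) against the log2 fold change of Cd5-/-Cd6-/- over WT cells at 4 h (y), for genes with a mean of at least 1 CPM (grey), the 14 called genes (red) and those called with the replicate block alone (blue). The 3 genes of the deleted interval lie below -10 and the blue genes near or above the upper dotted line, which marks 2-fold.

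With the replicate number as a block, 12 further genes were called, all higher in Cd5-/-Cd6-/- cells. In each, every Cd5-/-Cd6-/- library was above the WT library of the same number. The calls were made on the same values, so this adds no support to them. Il12rb2, a chain of the IL-12 receptor that marks type 1 T cells, stood at 2.08, 5.62 and 3.37 CPM in WT and 3.83, 20.2 and 10.5 CPM in Cd5-/-Cd6-/- cells (log2 fold change 1.54, SE 0.26, adjusted p = 3.44e-04 with the block, and adjusted p = 0.0959 without it). Cxcl10, a chemokine induced by interferon-gamma, stood at 2.42, 7.85 and 9.19 CPM in WT and 6.22, 37.0 and 14.2 CPM in Cd5-/-Cd6-/- cells (log2 fold change 1.47, SE 0.33, adjusted p = 0.0290 with the block, and adjusted p = 0.357 without it). In both, Cd5-/-Cd6-/- library 1 was below the highest WT library, so the groups overlapped. Both depended on Cd5-/-Cd6-/- library 2, without which the log2 fold changes in the fit without the block fell from 1.64 to 0.96 for Il12rb2 and from 1.57 to 0.66 for Cxcl10, each with adjusted p = 1. Ccl3, a chemokine that draws monocytes and T cells, stood at 18.7, 25.9 and 37.9 CPM in WT and 41.4, 93.2 and 55.3 CPM in Cd5-/-Cd6-/- cells (log2 fold change 1.13, SE 0.25, adjusted p = 0.0271 with the block). Nkg7, a protein of cytotoxic granules, stood at 5.82, 7.43 and 11.7 CPM in WT and 14.8, 19.8 and 14.2 CPM in Cd5-/-Cd6-/- cells (log2 fold change 1.03, SE 0.21, adjusted p = 0.00872 with the block). For these the lowest Cd5-/-Cd6-/- library was above the highest WT library.

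Gbp2 and Gbp5 encode guanylate-binding proteins, GTPases of cell-autonomous defense that interferon-gamma induces. They were called with the block but ranked below the genes named by rule, and were picked for description after their values were seen. Gbp2 stood at 111, 324 and 503 CPM in WT and 233, 1246 and 798 CPM in Cd5-/-Cd6-/- cells (log2 fold change 1.26, SE 0.29, adjusted p = 0.0420 with the block, and adjusted p = 0.579 without it). Gbp5 stood at 21.8, 70.6 and 83.3 CPM in WT and 44.8, 255 and 137 CPM in Cd5-/-Cd6-/- cells (log2 fold change 1.26, SE 0.29, adjusted p = 0.0363 with the block, and adjusted p = 0.391 without it). In each genotype library 1 was the lowest, and Cd5-/-Cd6-/- library 2 was the highest of all 6. All 10 Gbp genes tested had log2 fold changes above 0, with a median of 0.93, and 2 of them were called with the block and 0 without. Their summed level was 337, 896 and 1082 CPM in WT and 598, 2706 and 1532 CPM in Cd5-/-Cd6-/- libraries. Reads of Gbp genes that resemble each other could have been split among them.

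Gbp2, Gbp5 and Cxcl10 are among the genes called with the block and were described above as induced by interferon-gamma. They were picked for display after the calls were known. The 250 bases before their start sites (RefSeq, GRCm38.p6) are shown. Capitals mark every match to GAAA and GAAA with NN between them, the core of the interferon-stimulated response element, or TTCNNNGAA, the gamma-activated site, each searched on both strands.
Gbp2, chr3:142620413-142620662, plus strand: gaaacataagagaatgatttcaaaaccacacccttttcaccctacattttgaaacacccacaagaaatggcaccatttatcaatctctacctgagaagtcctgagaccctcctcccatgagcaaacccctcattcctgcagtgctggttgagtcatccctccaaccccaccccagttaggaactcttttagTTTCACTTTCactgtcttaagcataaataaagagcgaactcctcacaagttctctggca
Gbp5, chr3:142496684-142496933, plus strand: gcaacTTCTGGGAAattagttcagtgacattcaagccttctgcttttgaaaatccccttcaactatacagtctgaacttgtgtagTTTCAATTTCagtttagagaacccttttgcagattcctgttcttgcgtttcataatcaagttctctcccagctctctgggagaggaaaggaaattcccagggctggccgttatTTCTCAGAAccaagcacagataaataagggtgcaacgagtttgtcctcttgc
Cxcl10, chr5:92348890-92349139, minus strand: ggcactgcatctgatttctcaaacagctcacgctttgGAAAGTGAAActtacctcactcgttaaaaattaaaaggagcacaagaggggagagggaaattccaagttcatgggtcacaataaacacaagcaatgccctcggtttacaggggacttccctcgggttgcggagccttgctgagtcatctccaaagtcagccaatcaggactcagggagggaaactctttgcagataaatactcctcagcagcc
Each held 1 match to the first, and Gbp5 also held 2 to the second. Over the 27025 RefSeq promoter windows of 300 bases searched, 3.49% held the first motif and 8.47% held TTCNNNGAA. Of the 21 genes called higher with the block, 14 had such a window, and 3 of these held the first motif (Gbp2, Gbp5 and Cxcl10) and 3 held TTCNNNGAA (Gbp5, Il12rb2 and Nkg7). A match is a stretch of letters and does not show binding.

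The remaining genes called with the block alone have other roles. Tigit, an inhibitory receptor of activated and regulatory T cells, stood at 8.56, 8.98 and 9.79 CPM in WT and 12.6, 26.7 and 28.3 CPM in Cd5-/-Cd6-/- cells (log2 fold change 1.21, SE 0.24, adjusted p = 0.00433 with the block). Plac8, expressed in lymphoid and myeloid cells, stood at 9.82, 10.2 and 25.1 CPM in WT and 16.9, 43.8 and 57.6 CPM in Cd5-/-Cd6-/- cells (log2 fold change 1.37, SE 0.28, adjusted p = 0.00731 with the block). Epas1, the hypoxia-inducible factor HIF-2 alpha, stood at 7.46, 10.2 and 5.53 CPM in WT and 13.7, 19.1 and 14.0 CPM in Cd5-/-Cd6-/- cells (log2 fold change 1.03, SE 0.22, adjusted p = 0.0196 with the block). The groups overlapped for Plac8 and not for Tigit and Epas1. Without WT library 3, the log2 fold change of Plac8 in the fit without the block rose from 1.39 to 1.99 (adjusted p = 0.00828). Spock2, an extracellular proteoglycan, stood at 1.98, 2.36 and 1.67 CPM in WT and 3.38, 7.44 and 5.02 CPM in Cd5-/-Cd6-/- cells (log2 fold change 1.37, SE 0.30, adjusted p = 0.0228 with the block). Prtn3, the neutrophil serine protease proteinase 3, was barely detected, with 1 read in all WT libraries and 3, 15 and 25 reads in the Cd5-/-Cd6-/- libraries, so no fold is given. By adjusted p with the block but not by fold, Lif, a cytokine of the IL-6 family (29.0, 54.8 and 41.4 CPM in WT and 42.0, 136 and 81.7 CPM in Cd5-/-Cd6-/- cells, log2 fold change 0.98, SE 0.21, adjusted p = 0.0153 with the block), Ikzf2, which encodes Helios (19.4, 21.3 and 15.2 and 28.1, 43.0 and 39.4 CPM, log2 fold change 0.99, SE 0.18, adjusted p = 0.00126 with the block), Tbx21, which encodes the type 1 regulator T-bet (19.2, 44.6 and 60.4 and 33.9, 157 and 66.7 CPM, log2 fold change 1.00, SE 0.23, adjusted p = 0.0363 with the block), and Ccr7, the lymph node homing receptor of naive T cells (302, 374 and 332 and 425, 481 and 589 CPM, log2 fold change 0.56, SE 0.13, adjusted p = 0.0363 with the block), were higher too. Without the block their adjusted p ran from 0.259 to 1. Tbx21 depended on Cd5-/-Cd6-/- library 2, without which its log2 fold change in that fit fell from 1.06 to 0.29 (adjusted p = 1).

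**Figure D3:**
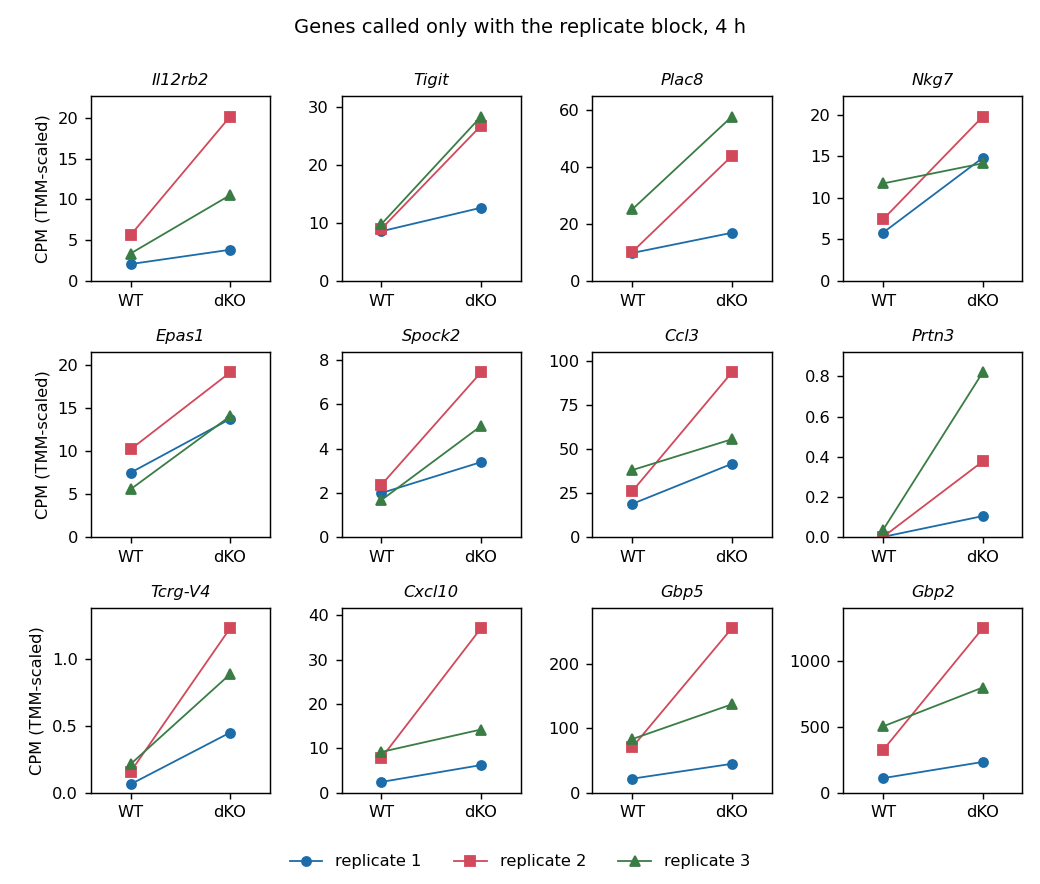
TMM-scaled CPM (y axes, linear from 0) of the 12 genes called with the replicate block alone, with lines joining same-numbered WT and Cd5-/-Cd6-/- (dKO) libraries at 4 h. All lines rise, and for most genes the rise is largest in pair 2.

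The genes through which the TCR signals were followed as lists. With 0.0434% of all genes called (0.0774% with the block), counts of 0 in lists of this length say nothing particular to them. In the list of the TCR complex and proximal signaling, 0 of 18 members rose and 0 fell in either fit, with log2 fold changes from -0.18 to 0.30 and a median of -0.062. The widest belonged to Cd247, the CD3 zeta chain (246, 293 and 372 CPM in WT and 307, 408 and 406 CPM in Cd5-/-Cd6-/- cells, log2 fold change 0.30, SE 0.16, adjusted p = 1), and to Lat, the adaptor LAT (1248, 1077 and 1345 and 1206, 972 and 1067 CPM, log2 fold change -0.18, SE 0.17, adjusted p = 1). Among partner proteins of CD5 and CD6, 0 of 15 passed in either direction (median 0.025). Alcam, the ligand of CD6, stood at 90.6, 71.0 and 58.2 CPM in WT and 67.3, 60.0 and 56.5 CPM in Cd5-/-Cd6-/- cells (log2 fold change -0.26, SE 0.22, adjusted p = 1). Ubash3a, a suppressor of TCR signaling, stood at 71.6, 72.6 and 54.7 CPM in WT and 70.5, 71.8 and 65.7 CPM in Cd5-/-Cd6-/- cells (log2 fold change 0.065, SE 0.16, adjusted p = 1). Cblb, an E3 ubiquitin ligase that restrains T cells, stood at 805, 883 and 719 CPM in WT and 847, 959 and 925 CPM in Cd5-/-Cd6-/- cells (log2 fold change 0.18, SE 0.15, adjusted p = 1). Of 30 negative regulators of TCR signaling, 0 passed (median -0.027). The widest belonged to Socs3, a suppressor of cytokine signaling, at 9.60, 32.7 and 26.4 CPM in WT and 16.3, 62.3 and 52.3 CPM in Cd5-/-Cd6-/- cells (log2 fold change 0.93, SE 0.32, adjusted p = 1, and 0.207 with the block). Its Cd5-/-Cd6-/- libraries were each above the WT library of the same number.

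The early activation program was followed by several lists, to which the same shares apply (0.0434%, and 0.0774% with the block). Among 22 immediate early transcription factors, 0 passed in either fit (median -0.043). Nr4a1, which follows TCR signal strength, stood at 6686, 8008 and 7507 CPM in WT and 6307, 7304 and 5996 CPM in Cd5-/-Cd6-/- cells (log2 fold change -0.18, SE 0.24, adjusted p = 1), Egr2, a zinc finger factor induced through calcium and MAP kinase signals, at 19.3, 18.1 and 19.8 and 17.6, 17.4 and 12.6 CPM (log2 fold change -0.26, SE 0.25, adjusted p = 1), and Irf4 at 2638, 2354 and 2072 and 2457, 2314 and 2248 CPM (log2 fold change -0.0091, SE 0.15, adjusted p = 1). For Egr2 the Cd5-/-Cd6-/- libraries were all below the WT libraries, with no call. Jun, a subunit of AP-1, stood at 21.9, 37.1 and 33.7 CPM in WT and 31.4, 87.6 and 45.9 CPM in Cd5-/-Cd6-/- cells (log2 fold change 0.83, SE 0.42, adjusted p = 1), with Cd5-/-Cd6-/- library 2 far above the rest. Myc, which drives growth, stood at 1121, 1425 and 1084 CPM in WT and 859.6, 1335 and 1064 CPM in Cd5-/-Cd6-/- cells (log2 fold change -0.16, SE 0.16, adjusted p = 1). In the biosynthesis and growth list, 4 members were above 0 and 16 below (median -0.13), and 0 of 20 passed. The NF-kappaB list had a median of -0.055 and 0 members that passed of 14. Rel, which encodes the NF-kappaB subunit c-Rel, stood at 1221, 1466 and 1107 CPM in WT and 1049.7, 1075 and 1009.7 CPM in Cd5-/-Cd6-/- cells (log2 fold change -0.28, SE 0.18, adjusted p = 1), with all Cd5-/-Cd6-/- libraries below the WT libraries. Cd69, an early activation receptor, stood at 1662, 1756 and 1816 CPM in WT and 1460.0, 1474 and 1624 CPM in Cd5-/-Cd6-/- cells (log2 fold change -0.20, SE 0.31, adjusted p = 1), with the groups apart but the difference within the fitted error. Cd44, a receptor for hyaluronan that rises on activated cells, stood at 85.5, 56.8 and 107 CPM in WT and 88.0, 118 and 117 CPM in Cd5-/-Cd6-/- cells (log2 fold change 0.38, SE 0.23, adjusted p = 1). The 14 activation receptors had a median of -0.14 and 0 that passed. Tnfrsf4, which encodes the costimulatory receptor OX40, stood at 168, 158 and 144 CPM in WT and 174, 217 and 224 CPM in Cd5-/-Cd6-/- cells (log2 fold change 0.39, SE 0.18, adjusted p = 1), again with the groups apart. The share of all genes with the groups apart is not given here, so nothing is read from the separation of these genes.

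Cytokine genes lay on both sides of 0. Il2, the T cell growth factor, stood at 47.5, 53.7 and 36.3 CPM in WT and 42.5, 64.6 and 47.4 CPM in Cd5-/-Cd6-/- cells (log2 fold change 0.17, SE 0.27, adjusted p = 1), Ifng, the type 1 effector cytokine, at 2.11, 3.52 and 6.07 and 3.38, 16.2 and 9.34 CPM (log2 fold change 1.32, SE 0.60, adjusted p = 1), and Tnf at 576, 887 and 656 and 555, 782 and 502 CPM (log2 fold change -0.20, SE 0.24, adjusted p = 1). None passed the test in either fit (adjusted p = 0.847 for Ifng with the block). Without Cd5-/-Cd6-/- library 2 the log2 fold change of Ifng was 0.72. Of the 22 cytokine genes, 14 of the 19 at 1 CPM or more were above 0 (median 0.39, against -0.013 over all 11183 genes at that level), and 1, Lif, passed adjusted p with the block. The summed level of the list was 3032, 3522 and 3319 CPM in WT and 2654, 3277 and 2818 CPM in Cd5-/-Cd6-/- libraries, lower in each same-numbered pair. Of the TNF family cytokines in the list, Tnf, Lta, Ltb, Tnfsf8 and Tnfsf14 were below 0, and Tnfsf11 was above it (log2 fold change 0.12, SE 0.17). The widest below 0 was Tnfsf14, which encodes LIGHT (189, 245 and 211 CPM in WT and 117, 162 and 157 CPM in Cd5-/-Cd6-/- cells, log2 fold change -0.57, SE 0.23, adjusted p = 1). Of 8 chemokine genes at that level, all were above 0 (median 0.61), and 2, Ccl3 and Cxcl10, were called with the block. In the list of interferon-stimulated genes, 17 of 17 were above 0 (median 0.48), and 0 of the 20 tested passed in either fit. Their summed level was 300.1, 454 and 541 CPM in WT and 342, 882 and 595 CPM in Cd5-/-Cd6-/- libraries, highest in Cd5-/-Cd6-/- library 2, and the groups overlapped. Oasl2, a 2′-5′ oligoadenylate synthetase-like protein, stood at 4.28, 10.1 and 13.7 CPM in WT and 5.80, 28.9 and 15.7 CPM in Cd5-/-Cd6-/- cells (log2 fold change 0.85, SE 0.40, adjusted p = 1), and Stat2, a transducer of type I interferon signals, at 14.6, 31.6 and 25.2 and 17.5, 71.6 and 29.6 CPM (log2 fold change 0.74, SE 0.29, adjusted p = 1). The naive state and quiescence list had 14 of 20 members at 1 CPM or more above 0 (median 0.12), and 1, Ccr7, passed adjusted p with the block. The heat shock and stress list had a median of -0.044 and 0 members that passed.

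**Figure D4:**
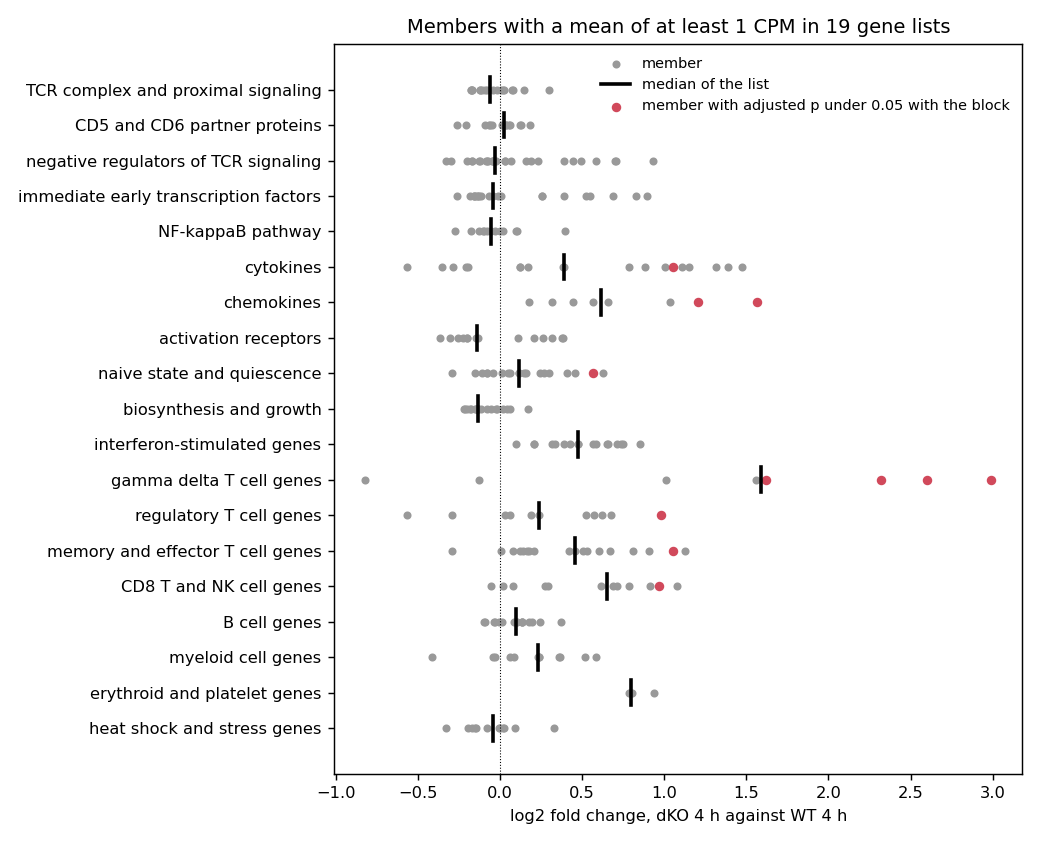
Log2 fold change of Cd5-/-Cd6-/- over WT cells at 4 h (x axis) for the members of 19 gene lists (rows) with a mean of at least 1 CPM, with the median of each list as a black bar. The members of the TCR list lie between -0.18 and 0.30. Tcrg-C1, Tcrg-C2 and Tcrg-C4 reach 1 CPM only through the Cd5-/-Cd6-/- libraries, so nothing is read from the median drawn for gamma delta T cell genes, and Cd163l1 and Tcrg-V4, under 1 CPM, are not drawn. Klra1 and Xcr1 reach 1 CPM in the same way, so nothing is read from the median drawn for CD8 T and NK cell genes.

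Markers of other cells were followed beside these results. The summed level of 7 erythroid and platelet genes was 1999, 1085 and 1175 CPM in WT and 1040.4, 4064 and 2311 CPM in Cd5-/-Cd6-/- libraries, so Cd5-/-Cd6-/- library 2, where Gbp2, Cxcl10 and Tbx21 were highest, also held the most erythroid RNA. The B cell list ran from 585 to 1753 CPM in WT and 888 to 1305 CPM in Cd5-/-Cd6-/- libraries, the myeloid list from 232 to 346 CPM in WT and 258 to 359 CPM in Cd5-/-Cd6-/- libraries, and the list of CD8 T and NK cells from 83.7 to 112 CPM in WT and 103 to 151 CPM in Cd5-/-Cd6-/- libraries. Regulatory T cell genes ran from 515 to 714 CPM in WT and 623 to 726 CPM in Cd5-/-Cd6-/- libraries. Memory and effector genes ran from 916 to 1056 CPM in WT and 1136 to 1401 CPM in Cd5-/-Cd6-/- libraries, with all Cd5-/-Cd6-/- libraries above the WT libraries. Most of the latter sum came from Il2rb, Ccr8 and Itgb1 (means of 277, 260 and 212 CPM over the 6 libraries). In that list 18 of 19 members lay above 0 (median 0.45) and 1, Tbx21, passed adjusted p with the block. Ccr6, among the 18, reached a mean of 1 CPM only through the Cd5-/-Cd6-/- libraries. Ccr4, a chemokine receptor of effector and regulatory T cells, stood at 36.2, 16.2 and 22.2 CPM in WT and 45.5, 27.2 and 67.2 CPM in Cd5-/-Cd6-/- cells (log2 fold change 0.91, SE 0.26, adjusted p = 0.519). The medians were 0.80 for erythroid and platelet genes, 0.10 for B cells, 0.23 for myeloid cells and 0.24 for regulatory T cells. In the list of CD8 T and NK cells, Klra1 and Xcr1 reached a mean of 1 CPM only through the Cd5-/-Cd6-/- libraries, so no median is given. Of these 5 lists, Nkg7 was called with the block, Ikzf2 passed adjusted p with the block, and no other member passed in either fit. The part of these cells in the results was not tested.

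The same contrast was also taken at 0 h, before stimulation, and at 20 h. It called 8 genes at 0 h (0.0248% of genes) and 14 at 20 h (0.0434%). With the replicate block the counts were 18 and 23 of 32290 genes tested. Trdc was higher at all times. It stood at 26.2, 23.8 and 23.4 CPM in WT and 56.6, 81.2 and 62.2 CPM in Cd5-/-Cd6-/- cells at 0 h (log2 fold change 1.45, SE 0.24, adjusted p = 2.99e-04), and at 4.85, 3.69 and 4.00 and 9.04, 14.3 and 9.09 CPM at 20 h (log2 fold change 1.37, SE 0.25, adjusted p = 0.00252). Its level fell from 4 h to 20 h in both genotypes while the log2 fold change stayed between 1.37 and 1.62. Tcrg-C2 and Tcrg-C4 were called at 0 h and at 20 h as well, and Cd163l1 at 0 h (log2 fold change 2.64, adjusted p = 0.0227, against 1.10 and adjusted p = 1 at 20 h). Trav14d-3-dv8 had log2 fold changes of -1.02 at 0 h (adjusted p = 0.139) and -1.19 at 20 h (adjusted p = 0.0464). Ppic was higher at 0 h by 0.99 (adjusted p = 0.0245), under the fold threshold, and its log2 fold change at 20 h was 0.50 (adjusted p = 1). Gbp2 had log2 fold changes of 0.17 at 0 h and 0.17 at 20 h, and Castor1 of 0.13 and -0.33, all with adjusted p = 1.

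The change of the genotype difference with time was tested as an interaction. Between 0 h and 4 h, edgeR called 0 genes (0%), with 671 genes at an unadjusted p under 0.05, and DESeq2 and the blocked fit also called 0. Between 4 h and 20 h it called 1 gene (0.0031%), Slc15a3, a lysosomal transporter of histidine and peptides. It lies beside the deletion, at chr19:10839727-10859362 on the plus strand, 9.79 kb past the end of the deleted interval. Slc15a3 stood at 2.14, 2.20 and 5.11 CPM in WT and 2.04, 5.77 and 3.02 CPM in Cd5-/-Cd6-/- cells at 4 h, with no called difference, and at 1.07, 0.958 and 1.45 and 0, 0.120 and 0 CPM at 20 h, near the floor in Cd5-/-Cd6-/- cells. In the single knockouts at 20 h it stood at 1.12, 1.71 and 1.63 CPM (Cd5-/-) and 1.33, 1.80 and 3.84 CPM (Cd6-/-). The fitted interaction was -4.86 on the log2 scale (SE 0.88, adjusted p = 0.0142), a value that depends on the prior count because Cd5-/-Cd6-/- cells had few reads at 20 h, and DESeq2 called 0 genes. Its call was lost without Cd5-/-Cd6-/- library 2 at 4 h, when 0 genes were called. With the block 16 genes were called (0.0496%), all lower at 20 h relative to 4 h, among them Castor1 (-1.55, adjusted p = 0.00330) and Ccr7 (-1.01, adjusted p = 0.00367). Ccr7 stood at 979, 933 and 1163 CPM in WT and 673, 729 and 849.5 CPM in Cd5-/-Cd6-/- cells at 20 h, the reverse order of 4 h.

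**Figure D5:**
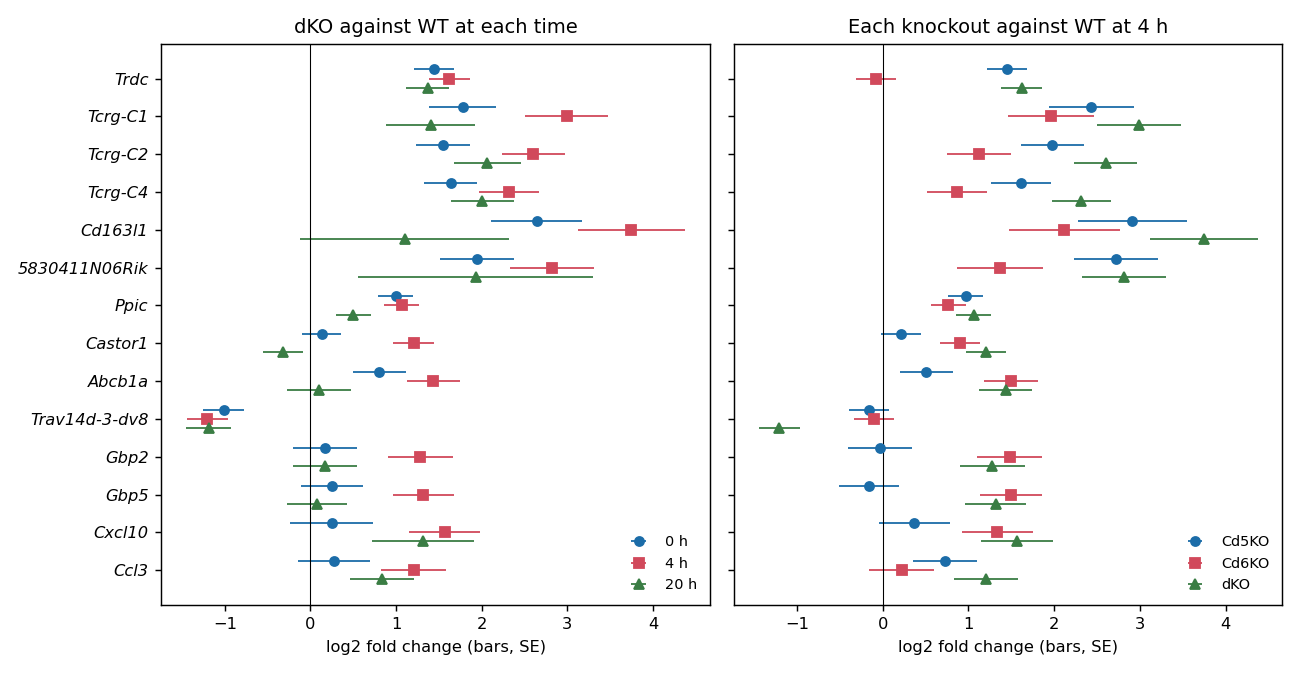
Log2 fold change (points) with its SE (bars) for 14 genes, for Cd5-/-Cd6-/- (dKO) against WT cells at 0 h, 4 h and 20 h (left) and for each knockout against WT cells at 4 h (right, where the 3 contrasts share the WT libraries). Trdc lies between 1.37 and 1.62 in Cd5-/-Cd6-/- cells over the times and at 1.45 in Cd5-/- cells, and at -0.081 in Cd6-/- cells.

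The single knockouts were measured at 4 h as well, the Cd5-/- from an allele backcrossed to C57BL/6 and the Cd6-/- from a separately edited allele. The contrasts with WT cells share the WT libraries, so their values are given side by side. Cd5-/- cells differed from WT cells in 24 genes (0.0743%) and Cd6-/- cells in 1 (0.0031%), Cd6 itself. With the replicate block the counts were 79 and 18 of 32290 genes tested. Trdc stood at 56.0, 49.6 and 55.9 CPM in Cd5-/- cells (log2 fold change against WT 1.45, SE 0.24, adjusted p = 4.09e-04) and 13.8, 17.6 and 24.6 CPM in Cd6-/- cells (log2 fold change -0.081, SE 0.23, adjusted p = 1). The summed gamma delta list ran from 75.8 to 79.9 CPM in Cd5-/- and from 29.8 to 50.7 CPM in Cd6-/- libraries. Gbp2 showed another order, with log2 fold changes against WT of -0.034 in Cd5-/- cells (adjusted p = 1) and 1.48 in Cd6-/- cells (adjusted p = 0.383, and 0.0165 with the block). Gbp5 had -0.16 and 1.49 (adjusted p = 1 and 0.256, and 0.0132 with the block in Cd6-/- cells). Abcb1a had 0.51 and 1.50 (adjusted p = 1 and 0.0624). Trav14d-3-dv8 had -0.16 and -0.10, both with adjusted p = 1.

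The Cd5-/-Cd6-/- cells were then compared with each single knockout directly. Against Cd6-/- cells 5 genes were called (0.0155%), namely Cd5, Cd6, A430093F15Rik, Igkv8-34, which again rested on Cd5-/-Cd6-/- library 2, and Trdc (log2 fold change 1.70, SE 0.24, adjusted p = 3.83e-06). With the block 12 were called (0.0372%), among them Tcrg-C2 (1.49, adjusted p = 0.0206) and Tcrg-C4 (1.45, adjusted p = 0.0324). Against Cd5-/- cells 187 genes were called (0.579%), 177 of them higher in Cd5-/-Cd6-/- cells (0.548%), and 326 with the block (1.01%). Of the 187, 18 were immunoglobulin genes, 7 stood in the B cell list and 5 in the erythroid and platelet list, where all 3 Cd5-/- libraries were low. The summed B cell list ran from 408 to 499 CPM in Cd5-/- and from 888 to 1305 CPM in Cd5-/-Cd6-/- libraries, and the erythroid and platelet list from 229 to 774 and from 1040.4 to 4064 CPM. The count was not stable, at 15 genes with edgeR's low-count filter, 85 with DESeq2, 450 without Cd5-/-Cd6-/- library 1 and 63 without Cd5-/-Cd6-/- library 2. The test called no difference in Trdc between these knockouts (log2 fold change 0.17, SE 0.23, adjusted p = 1), and Gbp5 was higher in Cd5-/-Cd6-/- cells (log2 fold change 1.48, SE 0.36, adjusted p = 0.0231).

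Whether the Cd5-/-Cd6-/- effect was the sum of both single effects was tested as a contrast of the 4 genotypes at 4 h. It called 4 genes (0.0124%), and 7 with the block (0.0217%). Cd5, Cd6 and A430093F15Rik differed from the sum of the single effects by -7.78, -9.18 and -11.29 on the log2 scale. Each single knockout kept part or all of these transcripts, as given with the targeted genes. The fourth was Ighv5-9-1, an immunoglobulin segment at 0.724, 0.440 and 0.0710 CPM in WT and 0.104, 1.20 and 0.459 CPM in Cd5-/-Cd6-/- cells. Its fitted departure from the sum was 6.49 on the log2 scale (SE 1.32, adjusted p = 0.0450), a value that depends on the prior count because the single knockout libraries held between 0 and 0.136 CPM. For Trdc the departure from the sum was 0.25 (SE 0.33, adjusted p = 1), and for Gbp2 -0.17 (SE 0.53, adjusted p = 1).

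The extent of activation as a whole was measured with a score over the 2236 genes higher and 2581 lower at 4 h than at 0 h in WT cells of the separate LAT experiment. It is the mean log2 CPM of the first group minus that of the second, set to 0% at the mean of WT cells at 0 h and to 100% at the mean of WT cells at 4 h. The WT libraries scored 105, 97.6 and 97.2% and the Cd5-/-Cd6-/- libraries 97.9, 88.5 and 94.9%. The means were 100% ± 4.50 (SD, n = 3) and 93.8% ± 4.78 (SD, n = 3), a difference of -6.23 percentage points (exact permutation test, two-sided, p = 0.3, where the smallest possible is 0.1). The groups overlapped, since Cd5-/-Cd6-/- library 1 scored above WT libraries 2 and 3, and in each same-numbered pair the Cd5-/-Cd6-/- library scored lower. At 3 libraries against 3 this test cannot reach the threshold of 0.05.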

How the data were processed

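RNA of naive CD4+ T cells was measured in 6 libraries compared here, from an experiment of 36 in 12 groups of 3. The authors prepared stranded mRNA libraries, aligned them to GRCm38 by STAR and summarised them per gene by featureCounts. The deposited counts are raw, neither normalized nor pooled, with a gene length column that was not used. The annotation release, the strand setting and the treatment of multi-mapping reads are not given in the sources used here, so counts of overlapping or near-identical genes are uncertain. All sample columns were matched to samples by title, and 0 per-sample columns were left unused. Gene symbols were matched for 55144 of 55385 identifiers, and the 32290 genes with at least 1 read over the 36 libraries were tested.

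Counts were fitted in R 4.3.3 with edgeR 4.0.16 (TMM factors, quasi-likelihood test, Benjamini-Hochberg adjustment over all genes), with 1 coefficient per group and all 36 libraries. Calls required more than 2-fold and adjusted p below 0.05, as in the study. SE are the log2 fold change divided by the square root of F. Alternatives were DESeq2 1.42.0, RLE factors, library totals, filterByExpr (which kept 16143 genes), fits of the 6 or the 12 libraries of 4 h, fits without 2 doubted 0 h libraries, and leaving out each library. The scripts were tested on simulated counts. The depth behind each value is given in the report, and 3 counts set the floor.

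The labels number the replicates, and nothing says what a number shares. Over 7835 genes with a mean of at least 10 CPM, deviations from the group means correlated between same-numbered WT and Cd5-/-Cd6-/- libraries at 0.668, 0.722 and 0.741, and between other pairs at -0.653 to -0.0884. Deviations from a group mean sum to 0, so the negative values follow in part from the positive ones and add no separate evidence. For the positive correlations the numbers were taken to pair the libraries, and the blocked value is given where it changes a call.

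Named genes were Cd5, Cd6 and genes between the guide sites, called genes (up to 15 per direction), genes called with the block alone (up to 10), members of 20 gene lists with adjusted p under 0.05, a fixed set of activation genes, up to 2 members per list with the widest change at 10 CPM or more, and up to 5 genes of each related contrast. The comparison, the lists and the tests were chosen with earlier results of these data known. Guide sequences came from the supplement of the study, promoters from RefSeq and gene models from GENCODE. Promoter windows of chromosome 18 were left out of the motif search. Items withheld for evaluation are not reported here.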

Additional observations from a re-analysis of the deposited data

Results flagged for a closer look

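The difference between Cd5-/-Cd6-/- and WT cells changed between 4 h and 20 h for Slc15a3 (fitted interaction -4.86 on the log2 scale, adjusted p = 0.0142 by edgeR). At 20 h the Cd5-/-Cd6-/- libraries held 0, 0.120 and 0 CPM against 1.07, 0.958 and 1.45 CPM in WT, and at 4 h the groups overlapped. The call also rested on Cd5-/-Cd6-/- library 2 at 4 h, without which it was lost.

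The Cd5-/-Cd6-/- effect at 4 h differed from the sum of both single effects for Ighv5-9-1 (6.49), Cd5 (-7.78), Cd6 (-9.18) and A430093F15Rik (-11.29 on the log2 scale). The single knockout libraries held 0, 0 and 0.0854 CPM (Cd5-/-) and 0.0514, 0.120 and 0.136 CPM (Cd6-/-) of Ighv5-9-1. No gene met this criterion between 0 h and 4 h. Groups of 3 libraries are too small for the test for single outlying libraries, which was not run.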

How the results depend on the processing

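With 3 libraries a group, counts of calls moved with the fit while the genes of the deleted interval and 5 gamma delta genes (Trdc, Tcrg-C1, Tcrg-C2, Tcrg-C4 and Cd163l1) were called under all 15 alternatives. The 10 genes higher in Cd5-/-Cd6-/- cells became 21 with the replicate block, 75 with the block in the 6 libraries alone (a fit with 2 residual degrees of freedom), 6 with filterByExpr, 23 without the doubted 0 h libraries and 7 to 69 leaving out each library. The 4 lower became 13 with the block in the 6 libraries, 9 with DESeq2 and 3 to 4 leaving out each library. By adjusted p alone, the 10 higher became 33 with the block, 605 with the block in the 6 libraries, 32 without the doubted libraries and 7 to 90 leaving out each library, and the 4 lower 169 with the block in the 6 libraries, 9 with DESeq2 and 3 to 4 leaving out each library. Between 4 h and 20 h the 1 gene became 16 with the block, 0 with filterByExpr, 0 with DESeq2 and 0 to 28 leaving out each library, and between 0 h and 4 h the range was 0 to 1. Against Cd5-/- cells the 187 became 326 with the block, 15 with filterByExpr, 85 with DESeq2 and 63 to 450 leaving out each library. Against Cd6-/- cells the 5 became 12 with the block and 5 to 8 leaving out each library, and for the sum of single effects the 4 became 7 with the block and 3 to 16 leaving out each library. The cause was not tested. With genes from the LAT experiment, the score difference ran from -6.23 to -4.29 over its settings (exact sign-flip test on same-numbered pairs, p = 0.25, the smallest possible) and -8.28 to -3.61 leaving out each library. With genes chosen in the CD5/CD6 experiment itself it was -9.08. There the WT libraries compared also chose the genes, so nothing is read from that value. Leaving out each library, the log2 fold change turned sign for Il2 (-0.023 to 0.31, negative without Cd5-/-Cd6-/- library 2), Igkv8-34 (-2.67 to 8.65, negative without Cd5-/-Cd6-/- library 2), Cd4 (-0.24 to 0.019, positive without Cd5-/-Cd6-/- library 3), Ubash3a (-0.042 to 0.14, negative without WT library 3) and Irf4 (-0.080 to 0.093, positive without Cd5-/-Cd6-/- library 2, Cd5-/-Cd6-/- library 3 or WT library 1). Irf4 also turned with library totals (0.026), in the 12 libraries of 4 h (0.0079) and with the block in the 6 libraries (0.0037). Of these only Igkv8-34 had been called. The block ended that call, gave those of the 12 genes described and of the 4 by adjusted p alone, and changed no other call of a named gene between Cd5-/-Cd6-/- and WT cells at 4 h. Over 41 named genes and 615 refits, 522 kept the direction and the side of the thresholds, 29 lost the call and 54 gained it. At these depths genes near the floor of 3 counts, such as Prtn3 and Igkv8-34, are measured from few reads.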
